A study of Mus musculus with 24 samples.

Results

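The comparison set lungs of saline-treated mice exposed to the higher dose of diesel exhaust against lungs of saline-treated mice exposed to the lower dose, using the 4 arrays of each group out of 24 arrays in the study. The study profiled mouse lung RNA on Affymetrix arrays in 6 groups of 4. The high-dose group (DE 2000) breathed diesel exhaust at 2000 ug/m3 and the low-dose group (DE 500) at 500 ug/m3, each for 4 hours a day over 5 days, and both received saline for 3 days. The remaining groups breathed filtered air with saline, or filtered air or either dose of exhaust with 100 ug of ovalbumin (OVA) for 3 days. The strain, age and sex of the mice and whether the 4 replicates of a group were separate animals are not stated in the labels, so p-values measure the spread between these samples. The 4 arrays per group limit the precision of every value.

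Inhaled particles meet the fluid lining of the airways and alveoli, where epithelial cells and resident macrophages respond to them. Lung epithelium secretes iron-binding, complement and antimicrobial proteins, and carries polymeric IgA into the airway lumen on the polymeric immunoglobulin receptor. Neutrophils enter the lung from blood during inflammation and carry a characteristic set of surface, granule and cytosolic proteins. In whole-lung RNA, fewer cells of a type and less RNA per cell cannot be told apart. Values below are log2 signals, with the signal being the deposited intensity of a probe set, and a difference is DE 2000 minus DE 500. The arrays do not give a level per length, so signals of different probe sets were not read as relative levels of transcripts. Sums of signal over a gene list, and shares of such a sum, weigh bright probe sets most.

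Markers that define lung tissue were bright on all 8 arrays. Sftpc, the surfactant protein of alveolar type 2 cells, had signals of 29613 to 32838 at DE 2000 and 23980 to 41213 at DE 500, and Scgb1a1, the main secretory protein of club cells, had 24403 to 28623 at DE 2000 and 21115 to 37883 at DE 500. The 8 arrays differed in how evenly transcripts were covered. The log2 3'/5' ratio, the mean of the Gapdh and actin control ratios and a measure that is high when signal is lost from the 5' end, was 2.04, 1.61, 1.30 and 1.55 in the DE 2000 arrays and 4.38, 0.33, 0.10 and 3.77 in the DE 500 arrays. The DE 2000 arrays lay close together and the DE 500 arrays lay in a high pair (replicates 1 and 4) and a low pair (replicates 2 and 3), with none of them inside the DE 2000 range. The group means of 1.63 ± 0.31 at DE 2000 and 2.15 ± 2.24 at DE 500 (SD, n = 4 each) did not differ beyond that spread (exact permutation test, two-sided, p = 0.629, adjusted over 5 quality measures 0.914, smallest possible p 0.0286). The comparison was therefore made with a linear model without this ratio and again with the ratio as a covariate.

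Without the covariate the difference between the doses was small in number and ran in 1 direction. Of 13575 probe sets tested, 7 were higher at DE 2000 (0.0516%) and 0 were lower (0.0%) at an adjusted p below 0.05 in limma. At an unadjusted p below 0.05, limma gave 409 probe sets that were higher (3.01%) and 316 that were lower (2.33%). The 7 probe sets belonged to 6 genes, namely Cd177, Pigr (represented by 2 probe sets), Saa3, Lcn2, Cp and D17H6S56E-5. When each gene was represented by its brightest probe set, 5 of 8315 genes were higher (0.0601%) and 0 were lower (0.0%). Cd177, Pigr, Saa3 and Lcn2 encode proteins of neutrophils, of acute inflammation or of mucosal defence.

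The stretch of 250 bases before the annotated start is shown for these 4 genes, because they were called together and because NF-kB and C/EBP sites are familiar features of promoters of inflammatory genes. The sequences are from RefSeq (GRCm38.p6), run 5′ to 3′ on the strand of the gene, and show in capitals, on either strand, matches to an NF-kB consensus (GGG, any 5 bases, then CC) and to a C/EBP consensus (TTGCNNAA). Saa3 is at chr7:46715677-46715926 on the minus strand, Lcn2 at chr2:32387740-32387989 on the minus strand, Pigr at chr1:130826434-130826683 on the plus strand and Cd177 at chr7:24760312-24760561 on the minus strand.
Saa3: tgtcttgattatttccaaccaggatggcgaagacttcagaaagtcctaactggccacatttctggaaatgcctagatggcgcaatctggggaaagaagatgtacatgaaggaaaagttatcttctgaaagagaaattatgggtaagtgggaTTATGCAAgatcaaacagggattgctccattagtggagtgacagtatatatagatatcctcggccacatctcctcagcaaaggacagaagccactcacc
Lcn2: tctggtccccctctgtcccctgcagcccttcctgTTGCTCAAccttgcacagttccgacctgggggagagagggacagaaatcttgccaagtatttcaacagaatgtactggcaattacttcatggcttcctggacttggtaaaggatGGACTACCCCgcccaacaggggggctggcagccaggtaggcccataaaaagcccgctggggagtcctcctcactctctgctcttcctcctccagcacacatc
Pigr: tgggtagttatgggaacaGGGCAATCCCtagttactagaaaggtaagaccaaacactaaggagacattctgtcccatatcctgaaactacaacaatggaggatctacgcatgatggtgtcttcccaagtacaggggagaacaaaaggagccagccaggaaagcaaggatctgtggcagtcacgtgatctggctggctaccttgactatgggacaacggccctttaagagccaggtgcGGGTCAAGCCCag
Cd177: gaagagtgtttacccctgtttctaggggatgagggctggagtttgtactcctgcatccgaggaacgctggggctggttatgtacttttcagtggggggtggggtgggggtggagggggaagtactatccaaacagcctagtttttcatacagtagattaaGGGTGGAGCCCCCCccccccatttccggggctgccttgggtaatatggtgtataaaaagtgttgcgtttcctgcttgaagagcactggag
The Saa3 window held 1 C/EBP match, starting 99 bases before the start, and no NF-kB match. The Lcn2 window held 1 NF-kB match at -102 and 1 C/EBP match at -216. The Pigr and Cd177 windows each held 3 NF-kB matches, at -232, -13 and -12 in Pigr and at -90, -89 and -86 in Cd177, and no C/EBP match. The last 2 in Pigr and all 3 in Cd177 overlap one another. In no window did an NF-kB match overlap a C/EBP match. These short patterns are common: among 32851 windows of the same length, 45.8% held the NF-kB pattern and 9.56% the C/EBP pattern. A match is a description of letters and not of a bound site.

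Cd177, a glycoprotein of the neutrophil surface, showed the largest rise among the genes called without the covariate. Its log2 signals were 9.07, 9.25, 9.62 and 10.04 at DE 2000, against 6.77, 7.0, 6.43 and 6.72 at DE 500. Every DE 2000 array lay above every DE 500 array, with a wide gap. The difference was 2.77 ± 0.30 (SE), or 6.81-fold (limma, adjusted p = 5.12e-05), and was 2.83 ± 0.29 with the 3'/5' covariate (adjusted p = 5.39e-06). All 4 DE 500 arrays and 0 DE 2000 arrays lay below the signal of 138.3 used as the filter on the mean of all arrays, so the size of the difference rests on low DE 500 signals. With a pseudocount of 16.2 it was 2.59 (limma, adjusted p = 3.7e-05).

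Saa3, a serum amyloid A protein that mouse tissues make locally during acute inflammation, had log2 signals of 10.12, 10.54, 9.90 and 10.06 at DE 2000, against 8.02, 6.50, 7.59 and 7.95 at DE 500. The groups did not overlap, and the DE 500 arrays were spread more widely. The difference was 2.64 ± 0.48, or 6.23-fold (limma, adjusted p = 0.0293), and 2.86 ± 0.39 with the covariate (adjusted p = 0.000445). The call without the covariate was lost when any of the 8 arrays was left out, with adjusted p between 0.0529 and 0.17, while the difference stayed between 2.30 and 2.81.

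Pigr, the receptor that carries polymeric IgA across epithelium, had log2 signals of 11.51, 11.74, 11.53 and 11.28 at DE 2000, against 10.31, 9.74, 9.31 and 10.04 at DE 500. The groups did not overlap. The difference was 1.67 ± 0.22, or 3.17-fold (limma, adjusted p = 0.00044), and 1.77 ± 0.17 with the covariate (adjusted p = 1.27e-06). A second Pigr probe set had 10.28, 10.79, 10.77 and 10.61 at DE 2000, against 8.41, 9.20, 9.22 and 8.17 at DE 500, a difference of 1.86 ± 0.23 (limma, adjusted p = 0.000294). Both probe sets of this gene were thus higher at DE 2000 by similar amounts. The DE 500 arrays ranked in nearly opposite orders in them.

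Lcn2, a protein that withholds iron from bacteria by binding their siderophores, had log2 signals of 10.96, 10.82, 10.90 and 10.94 at DE 2000, against 9.64, 9.76, 9.93 and 9.93 at DE 500. Both groups were tight and well apart. The difference was 1.09 ± 0.18, or 2.13-fold (limma, adjusted p = 0.00891), and 1.10 ± 0.18 with the covariate (adjusted p = 0.00216). Without DE 500 replicate 1 the difference was 1.03 and the adjusted p was 0.0529.

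D17H6S56E-5, named in the array annotation by its map position, had log2 signals of 10.76, 10.77, 10.79 and 10.85 at DE 2000, against 10.10, 9.58, 9.82 and 10.03 at DE 500. The difference was 0.91 ± 0.14, or 1.88-fold (limma, adjusted p = 0.00498), and 0.95 ± 0.13 with the covariate (adjusted p = 0.000523). The DE 2000 arrays were nearly equal and all lay above the DE 500 arrays. A second probe set of this gene had overlapping groups and was called in neither fit (0.68 ± 0.30, limma, adjusted p = 0.912; with the covariate 0.53 and 0.246).

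**Figure D1:**
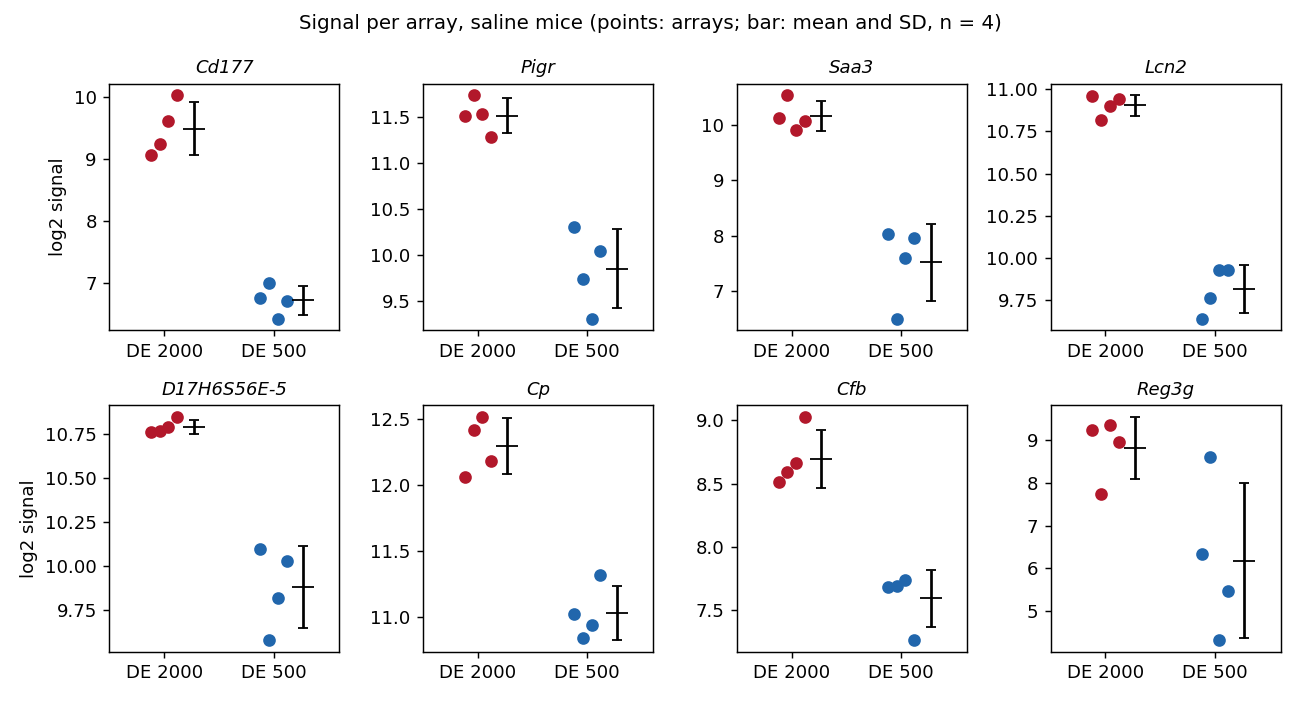
Log2 signal of 8 genes in each array (points), with DE 2000 left of DE 500 and the mean and SD (n = 4) as bars; each panel has its own vertical range. Cd177, Pigr, Saa3, Lcn2, D17H6S56E-5, Cp and Cfb had no overlap between the groups, whereas in Reg3g DE 500 replicate 2 lay among the DE 2000 arrays.

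Cp, the copper-carrying ferroxidase ceruloplasmin, gave a mixed picture between its probe sets. Its brightest probe set had log2 signals of 12.06, 12.42, 12.52 and 12.18 at DE 2000, against 11.02, 10.84, 10.94 and 11.32 at DE 500. The groups were well apart, yet the difference of 1.27 ± 0.27 (2.40-fold) missed the threshold (limma, adjusted p = 0.155) and passed it with the covariate (1.34 ± 0.25, adjusted p = 0.0079). A second Cp probe set, of a type that can bind related transcripts, was called without the covariate, with a difference of 1.07 ± 0.19 (limma, adjusted p = 0.0195). In the other tested Cp probe sets the differences without the covariate were 0.87, 0.81, 0.45, 0.14 and 0.07, and none of these was called. With the covariate the 0.81 probe set, whose groups were apart, was called as well (0.90, limma, adjusted p = 0.0219).

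The filtered-air saline arrays show where the 2 doses stood relative to no exhaust. These contrasts share arrays with the comparison of the doses and are given side by side for description. Cd177 averaged 7.11 in air, 6.73 at DE 500 and 9.50 at DE 2000. Saa3 averaged 7.42 in air, 7.51 at DE 500 and 10.15 at DE 2000. Pigr averaged 10.09 in air, 9.85 at DE 500 and 11.51 at DE 2000. Lcn2 averaged 9.93 in air, 9.81 at DE 500 and 10.90 at DE 2000. D17H6S56E-5 averaged 10.04 in air, 9.88 at DE 500 and 10.79 at DE 2000. In each of these 5 genes the DE 500 mean lay near the air mean, and DE 500 minus air was between -0.38 and 0.09 with no call (limma, adjusted p from 0.849 to 0.987). DE 2000 minus air was called in all 5, with differences from 0.76 to 2.73 (limma, adjusted p from 0.000683 to 0.0203). Probe sets of Cp differed in this. The one called between the doses without the covariate averaged 9.87 in air, 9.75 at DE 500 and 10.82 at DE 2000. Another, called between the doses in neither fit, averaged 8.48, 9.85 and 10.3. Its DE 500 minus air was 1.37 ± 0.26 (limma, adjusted p = 0.0658) and its DE 2000 minus air 1.82 ± 0.26 (adjusted p = 0.00205).

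The difference between the doses was also available in ovalbumin-treated mice, on other arrays. On the ovalbumin arrays the log2 3'/5' ratio lay between -0.04 and 0.12 at DE 500. At DE 2000 it lay between -0.13 and 0.09, apart from 2.02 in replicate 4. Saline and ovalbumin arrays thus differed in this ratio as well as in treatment, and its part in the comparison was not tested. In those mice DE 2000 exceeded DE 500 by 1.75 ± 0.30 in Cd177 (limma, adjusted p = 0.0431). The brightest Pigr probe set differed by 1.51 ± 0.22 (limma, adjusted p = 0.00673). The second Pigr probe set differed by 0.92 ± 0.23 and was not called (limma, adjusted p = 0.401). The ovalbumin difference was 0.82 ± 0.48 in Saa3 (limma, adjusted p = 0.57), 0.75 ± 0.18 in Lcn2 (adjusted p = 0.401) and 0.39 ± 0.14 in D17H6S56E-5 (adjusted p = 0.424). In the Cp probe set called in saline mice it was 0.46 ± 0.19 (limma, adjusted p = 0.444). The test of the difference between saline and ovalbumin mice passed for none of these genes (limma interaction, adjusted p at least 0.954). Saa3 had the widest gap among them, at 1.82 ± 0.68. Over all 13575 probe sets the interaction was called for 0 (0.0%), with 655 at an unadjusted p below 0.05 in limma. With the 3'/5' covariate it was called for 3 (0.0221%).

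Neutrophil markers were tested as a list of 28 genes, of which 24 were on the array and 15 passed the signal filter, which used the mean over all 24 arrays. Of these 15, 2 rose (Cd177 and Lcn2) and 0 fell without the covariate, against 0.0601% of all tested genes called higher and 0.0% called lower. At an unadjusted p below 0.05, 9 of the 15 were higher, against 3.52% of all tested genes higher and 2.22% lower. The list had 14 members above 0 and a median difference of 0.59, against a median of 0.03 over all tested genes, of which 56.0% lay above 0. The list was chosen with earlier results of these data known, so these counts and this median are a description only. Its member Cd177 lay below the filter signal in all 4 DE 500 arrays. The log2 of the summed signal of the list was 14.54 to 14.81 at DE 2000 and 13.81 to 14.44 at DE 500, so the groups did not overlap. Hp, which also stands in the club cell and acute phase lists, made up 41.2% to 51.4% of that sum at DE 2000 and 49.3% to 60.7% at DE 500. Without Hp the log2 sum was 13.50 to 14.04 at DE 2000 and 12.63 to 13.16 at DE 500. Mpo and Elane, the primary granule enzymes of neutrophil precursors, were on the array and below the filter.

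S100a8, a subunit of the calcium-binding protein calprotectin, had log2 signals of 11.35, 12.13, 10.70 and 10.78 at DE 2000, against 10.65, 10.24, 9.6 and 10.01 at DE 500. The lowest DE 2000 array lay just above the highest DE 500 array, and the difference of 1.12 ± 0.31 missed the threshold (limma, adjusted p = 0.609; with the covariate 1.16 and 0.0559). S100a9, the other calprotectin subunit, differed by 1.05 ± 0.32 with overlapping groups (limma, adjusted p = 0.822). DE 2000 replicate 2 had the highest value of both subunits. Pglyrp1, a granule protein that binds bacterial peptidoglycan, differed by 1.05 ± 0.29 (limma, adjusted p = 0.609; with the covariate 1.18 and 0.0149). Mmp9, a gelatinase of neutrophil granules, differed by 0.59 ± 0.16 (limma, adjusted p = 0.609; with the covariate 0.66 and 0.0149). With the covariate 5 list members rose (Cd177, Hp, Lcn2, Mmp9 and Pglyrp1) and 1 fell (Cybb, the membrane subunit of the phagocyte oxidase, -0.81, limma adjusted p = 0.0265), against 0.409% of all tested genes called higher and 0.673% called lower.

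The list of acute phase and mucosal defence genes had 28 genes, 27 of them on the array and 17 tested. Without the covariate 3 rose (Saa3, Lcn2 and Pigr) and 0 fell, against 0.0601% of all tested genes called higher and 0.0% called lower, and 11 were higher at an unadjusted p below 0.05, against 3.52% of all tested genes. The list had 15 members above 0 and a median of 0.76, against 0.03 over all tested genes. This list too was chosen with earlier results of these data known, so its counts and median are a description only. The median was 0.40 when members below the signal filter were included and 0.61 without DE 2000 replicate 4. With the covariate 7 rose (Cd14, Cfb, Cp, Hp, Lcn2, Pigr and Saa3) and 0 fell, against 0.409% of all tested genes called higher and 0.673% called lower. Lcn2, Hp and Ltf stand in the neutrophil list as well.

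Cfb, factor B of the alternative complement pathway, had log2 signals of 8.51, 8.59, 8.66 and 9.03 at DE 2000, against 7.68, 7.69, 7.74 and 7.26 at DE 500. The groups were apart, and the difference of 1.10 ± 0.25 (2.15-fold) was not called without the covariate (limma, adjusted p = 0.186) and was called with it (1.12 ± 0.25, adjusted p = 0.0214). Reg3g, an antibacterial lectin, had log2 signals of 9.24, 7.75, 9.35 and 8.95 at DE 2000, against 6.33, 8.61, 4.31 and 5.48 at DE 500. One low-dose array, replicate 2, lay within the DE 2000 range, and the difference of 2.64 ± 0.75 was called in neither fit (limma, adjusted p = 0.609; with the covariate 0.0683). Its size equalled that of Saa3 while its SE was larger. DE 500 replicates 1, 3 and 4 of Reg3g lay below the filter signal of 138.3, so the size of its difference rests on low signals. In Saa3, DE 500 replicate 2 lay below that signal. Hp, the haemoglobin-binding acute phase protein haptoglobin, differed by 0.40 ± 0.15 (limma, adjusted p = 0.838; with the covariate 0.47 and 0.0351). Muc5b, a gel-forming airway mucin, differed by 0.76 ± 0.26 (limma, adjusted p = 0.838; with the covariate 0.83 and 0.0805).

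**Figure D2:**
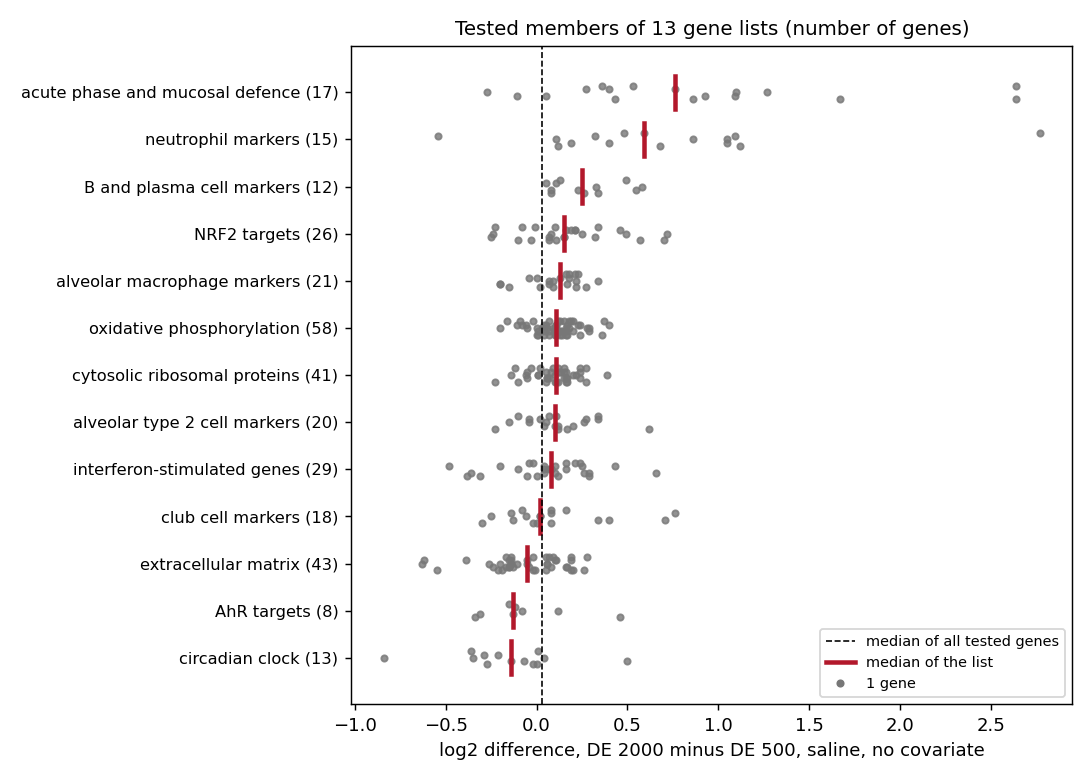
Difference of each tested gene (points) in 13 gene lists on the log2 scale, DE 2000 minus DE 500 without the covariate, with each list's median (bar) and the median of all tested genes (dashed line, 0.03). The acute phase and neutrophil lists have medians of 0.76 and 0.59, and the other medians lie between -0.14 and 0.25.

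No marker list of lung epithelium had a call without the covariate. Among 20 tested alveolar type 2 markers the median was 0.10 and 4 were higher at an unadjusted p below 0.05, against 3.52% of all tested genes. Their median was 0.22 without DE 500 replicates 1 and 4. With the covariate 1 rose, Muc1, a cell-surface mucin with 12.61, 12.02, 12.52 and 12.72 at DE 2000, against 11.77, 11.72, 11.80 and 12.10 at DE 500 (0.66 ± 0.15, limma, adjusted p = 0.0219). The lowest DE 2000 array lay below the highest DE 500 array. Among 18 club cell markers the median was 0.02 and 4 were higher at an unadjusted p below 0.05, and the 2 members called with the covariate were Hp and Scgb3a1. With the covariate 0.409% of all tested genes were called higher. Scgb3a1, a secretoglobin of airway secretory cells, had 13.87, 13.02, 13.67 and 14.08 at DE 2000, against 13.56, 12.67, 12.33 and 13.24 at DE 500. These groups overlapped, and the difference was 0.71 ± 0.24 without the covariate (limma, adjusted p = 0.838) and 0.85 ± 0.15 with it (adjusted p = 0.00607). Of 20 ciliated cell markers 7 were tested, with 6 above 0, a median of 0.22 and no call in either fit. The log2 of their summed signal was 13.27 to 13.38 at DE 2000 and 13.03 to 13.24 at DE 500, and these ranges did not overlap. Taken singly, 0 of the 7 had groups apart in either direction. This list was named after its values were seen, and the share of lists with sums apart was not computed. The 21 alveolar macrophage markers had a median of 0.13 with no call in either fit. The 12 B and plasma cell markers all lay above 0, where 56.0% of all tested genes did, with a median of 0.25 and no call in either fit. The log2 of their summed signal was 12.27 to 13.50 at DE 2000 and 12.24 to 12.65 at DE 500, and these ranges overlapped.

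None of the genes examined for a response to components of exhaust was called between the doses in either fit. The aryl hydrocarbon receptor, which binds polycyclic aromatic compounds, had 8 tested list members including itself, with a median of -0.13 and no call in either fit. Cyp1a1, its best-known target and a P450 that oxidises such compounds, had 7.69, 7.41, 7.64 and 7.96 at DE 2000, against 7.43, 8.20, 8.30 and 7.10 at DE 500, a difference of -0.08 ± 0.28 (limma, adjusted p = 0.992). The DE 500 arrays spanned the whole DE 2000 range. Cyp1b1, a related P450, differed by -0.12 ± 0.20 (limma, adjusted p = 0.979). The 26 tested targets of NRF2, the transcription factor of the oxidant response, had a median of 0.15 with 19 above 0, and no call in either fit. Over all tested genes the median was 0.03 and 56.0% lay above 0. At an unadjusted p below 0.05 in limma, 4 of the 26 were higher and 1 was lower, against 3.52% and 2.22% of all tested genes. Among the 26, Akr1b8, an aldo-keto reductase, had 9.97, 10.06, 9.96 and 10.10 at DE 2000, against 9.11, 9.49, 9.76 and 9.46 at DE 500. The groups were apart by a small margin, and the difference was 0.57 ± 0.16 (limma, adjusted p = 0.609; with the covariate 0.51 and 0.0627). Gpx2, an epithelial glutathione peroxidase, differed by 0.72 ± 0.27 with the groups apart (limma, adjusted p = 0.842; with the covariate 0.82 and 0.0892). Hmox1, haem oxygenase 1, differed by 0.07 ± 0.47, and Gclc, the catalytic subunit for glutathione synthesis, by 0.15 ± 0.19 (limma, adjusted p = 0.997 and 0.965). The metallothioneins Mt1 and Mt2, which bind metals, differed by -0.05 ± 0.26 and -0.03 ± 0.22 (limma, adjusted p = 0.997 and 0.999). The sign of these last 4 genes, and of Cyp1a1 and Cyp1b1, changed under some settings.

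Interferon-stimulated genes had a median of 0.08 over 29 tested members and no call without the covariate. Ifitm1, an interferon-induced membrane protein that restricts virus entry, had 11.71, 11.37, 11.81 and 12.03 at DE 2000, against 11.16, 11.06, 10.88 and 11.18 at DE 500. The groups did not overlap, and the difference of 0.66 ± 0.16 was called with the covariate (0.70, limma, adjusted p = 0.0151) and not without it (adjusted p = 0.339). The 58 tested oxidative phosphorylation genes and the 41 cytosolic ribosomal protein genes each had a median of 0.11, and no call in either fit. Above 0 were 49 of the 58 and 33 of the 41, against 56.0% of all tested genes, whose median was 0.03. The ribosomal median was 0.32 without DE 500 replicates 1 and 4. The log2 of the summed ribosomal signal was 18.59 to 18.72 at DE 2000, inside the DE 500 range of 18.25 to 18.91. Among the 43 matrix genes the median was -0.05, with no call without the covariate. Col3a1, a fibrillar collagen, differed by -0.63 ± 0.24 with the groups apart (limma, adjusted p = 0.864; with the covariate 0.168), and a second Col3a1 probe set by -0.16 ± 0.22 with overlapping groups. Of the type 2 response proteins, Retnla, a resistin-like molecule, differed by 0.44 ± 0.21 and Chil3, a chitinase-like protein of macrophages, by 0.07 ± 0.16 (limma, adjusted p = 0.915 and 0.99). Tmod3, an actin filament capping protein, and Fyttd1, an mRNA export adaptor, differed by -0.23 ± 0.20 and -0.18 ± 0.31 (limma, adjusted p = 0.957 and 0.98). These are the brightest probe sets, and of 2 other Tmod3 probe sets 1 was called with the covariate (-0.62 ± 0.12, limma, adjusted p = 0.00777) and 1 was not (-0.70 ± 0.22, adjusted p = 0.118), with overlapping groups in both.

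No gene was called lower at DE 2000 without the covariate. The lower genes of smallest p were Ap3m1, Ulk2, Foxn2, Ptpn12, Cfl2, Dazap2, Maff and Nsmce3. Ap3m1, a subunit of the AP-3 vesicle adaptor, had 9.33, 9.43, 9.25 and 9.14 at DE 2000, against 9.73, 9.91, 10.02 and 9.80 at DE 500. The groups did not overlap, and the difference was -0.58 ± 0.12 in both fits (limma, adjusted p = 0.113, and 0.0149 with the covariate). Other Ap3m1 probe sets that were tested differed by -0.14 and -0.13 without a call. Ulk2, a kinase related to the start of autophagy, differed by -0.70 ± 0.19, and Foxn2, a forkhead transcription factor, by -0.76 ± 0.21 (limma, adjusted p = 0.609 each). Both were called with the covariate (limma, adjusted p = 0.0157 and 0.00584). The other tested Ulk2 probe sets differed by -0.05 and 0.07, and by -0.05 each with the covariate, without a call. Maff, a small bZIP factor that partners NRF2, differed by -0.77 ± 0.24 without a call in either fit (limma, adjusted p = 0.838 and 0.118).

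With the 3'/5' ratio in the model the number of calls was much larger and the balance turned. Of 13575 probe sets, 47 were higher (0.346%) and 160 were lower (1.18%) at DE 2000 in limma, and the 7 called without the covariate were all among the 47. At the level of genes 34 were higher (0.409%) and 56 were lower (0.673%). The median SE of a difference was 0.172 with the covariate and 0.197 without it. The slope of signal on the ratio was itself called for 5146 probe sets (37.9%).

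The lower calls differed from the higher ones in how they were arranged over the arrays. Of the 160 lower probe sets, 156 had a called negative slope on the ratio. Over all tested probe sets 37.9% had a called slope of either sign. In all 160, DE 500 replicates 2 and 3 lay above replicates 1 and 4, an order also found in 37.9% of all tested probe sets. The mean ratio was higher at DE 500 (2.15, against 1.63), so adding it lowers the difference of a probe set with a negative slope. These counts therefore follow in part from how the calls were made. In 83 of the 160 every DE 2000 array lay inside the DE 500 range, and in 10 the groups were apart. Shares over all tested probe sets were not computed for that range or for each sign of slope. Of the 47 higher probe sets, 30 had a called positive slope and 24 had groups apart, where 1.78% of all tested probe sets were apart with DE 2000 above and 1.16% with DE 2000 below. No DE 500 array had a ratio within the DE 2000 range. The adjusted difference therefore rests on the fitted slope and not on a DE 500 array measured at that ratio. The slope was fitted within groups, and the ratio had an SD of 2.24 within DE 500, against 0.31 within DE 2000. The slope thus rests in large part on the same pairs of DE 500 arrays and is not independent of their order.

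**Figure D3:**
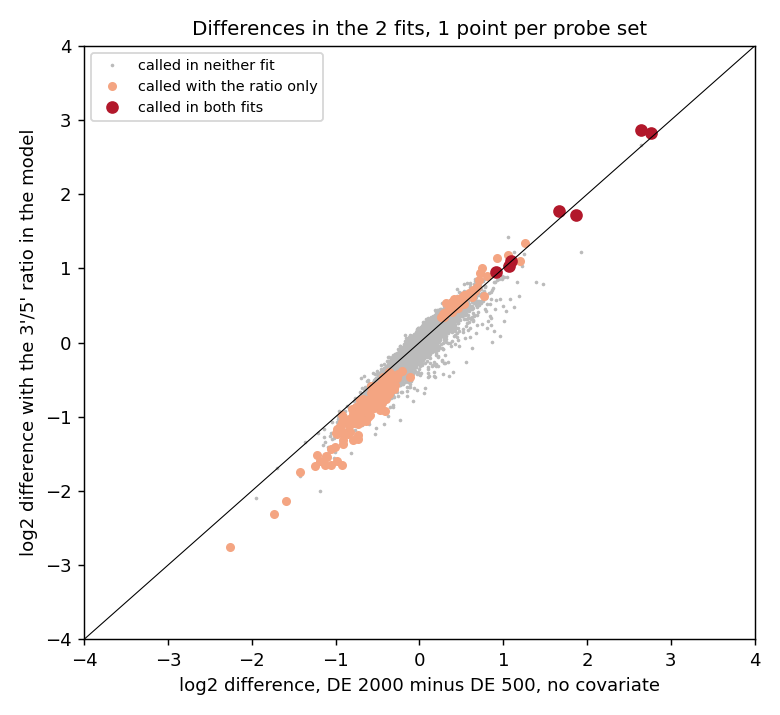
Difference of each tested probe set on the log2 scale, DE 2000 minus DE 500, without the covariate (horizontal) and with the 3'/5' ratio in the model (vertical); the line marks equal values. The 7 probe sets called in both fits lie at the upper right, and most of those called with the ratio only lie at negative differences.

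Nt5e, the ectoenzyme CD73 that makes adenosine from AMP, had log2 signals of 5.61, 5.39, 5.6 and 5.5 at DE 2000, against 6.02, 7.79, 8.23 and 5.74 at DE 500. The groups did not overlap, but replicates 1 and 4 of DE 500 lay just above the DE 2000 arrays while replicates 2 and 3 lay far above. The difference was -1.42 ± 0.50 without the covariate (limma, adjusted p = 0.838) and -1.75 ± 0.28 with it (adjusted p = 0.00204). All 4 DE 2000 arrays and 2 of the DE 500 arrays lay below the filter signal of 138.3, so the size of this difference rests on low signals, and with a pseudocount of 16.2 it was -1.21 without the covariate. Itga8, an integrin chain of lung mesenchymal cells, had 7.53, 7.88, 7.49 and 7.36 at DE 2000, against 6.54, 10.33, 10.68 and 6.95 at DE 500. The DE 2000 arrays lay between the pairs of DE 500 arrays, and the difference was -1.06 ± 0.81 without the covariate (limma, adjusted p = 0.957) and -1.65 ± 0.29 with it (adjusted p = 0.00518).

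Per2, a repressor of the circadian clock, had 8.56, 8.84, 8.74 and 8.50 at DE 2000, against 8.54, 10.38, 9.98 and 9.10 at DE 500. DE 500 replicate 1 lay within the DE 2000 range and replicates 2 and 3 lay far above it. Its difference was -0.84 ± 0.31 without the covariate (limma, adjusted p = 0.848) and -1.03 ± 0.20 with it (adjusted p = 0.0108), and a second Per2 probe set was called with the covariate as well (-1.51, adjusted p = 0.0218). Among 13 tested clock genes no other was called in either fit, and the median of that list was -0.14. Per1, a paralogue of Per2, had 11.16, 10.47, 10.39 and 10.47 at DE 2000, against 10.25, 10.23, 10.11 and 9.90 at DE 500. Its groups were apart in the opposite direction, with a difference of 0.50 ± 0.16 that was not called (limma, adjusted p = 0.827; with the covariate 0.103).

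Among genes represented by their brightest probe set, further large falls in the fit with the covariate were those of S1pr3, a receptor for sphingosine 1-phosphate (-2.31 ± 0.59), Foxf1, a transcription factor of lung mesenchyme and endothelium (-1.07 ± 0.22), Nox4, an NADPH oxidase (-0.95 ± 0.20), Col4a3, a basement membrane collagen chain (-0.88 ± 0.21), and Plekha5, Rnft1 and Map4k5 (-1.07, -0.97 and -0.95). Their limma adjusted p with the covariate lay between 0.0132 and 0.0478 and without it between 0.838 and 0.957. In S1pr3 the DE 2000 arrays, at 5.29, 3.76, 6.66 and 4.55, overlapped DE 500, at 5.81, 7.70, 8.85 and 4.83. In Foxf1, DE 2000 at 7.69, 7.82, 8.25 and 7.34 lay between the pairs of DE 500 arrays, at 7.11, 9.26, 10.16 and 7.37, apart from DE 2000 replicate 4, which lay just below DE 500 replicate 4. All 4 DE 2000 arrays and 2 DE 500 arrays of S1pr3 were below the filter signal. These 7 calls were not stable to single arrays. The call of S1pr3 was lost without DE 2000 replicate 2 or 4 or DE 500 replicate 1, 3 or 4 (differences from -2.87 to -1.74 over the 8 arrays left out, limma, adjusted p up to 0.167), and that of Foxf1 without DE 2000 replicate 4 or DE 500 replicate 1 or 3 (-1.31 to -0.91, adjusted p up to 0.092). Each of the other 5 was lost without at least 3 of the 8 arrays in turn, with limma adjusted p up to 0.145. A second tested Nox4 probe set differed by -0.5 ± 0.25 with the covariate and was not called (limma, adjusted p = 0.341). Some other probe sets had larger called falls than most of these genes, such as one of Cyth3 (-2.14, limma, adjusted p = 0.0151).

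**Figure D4:**
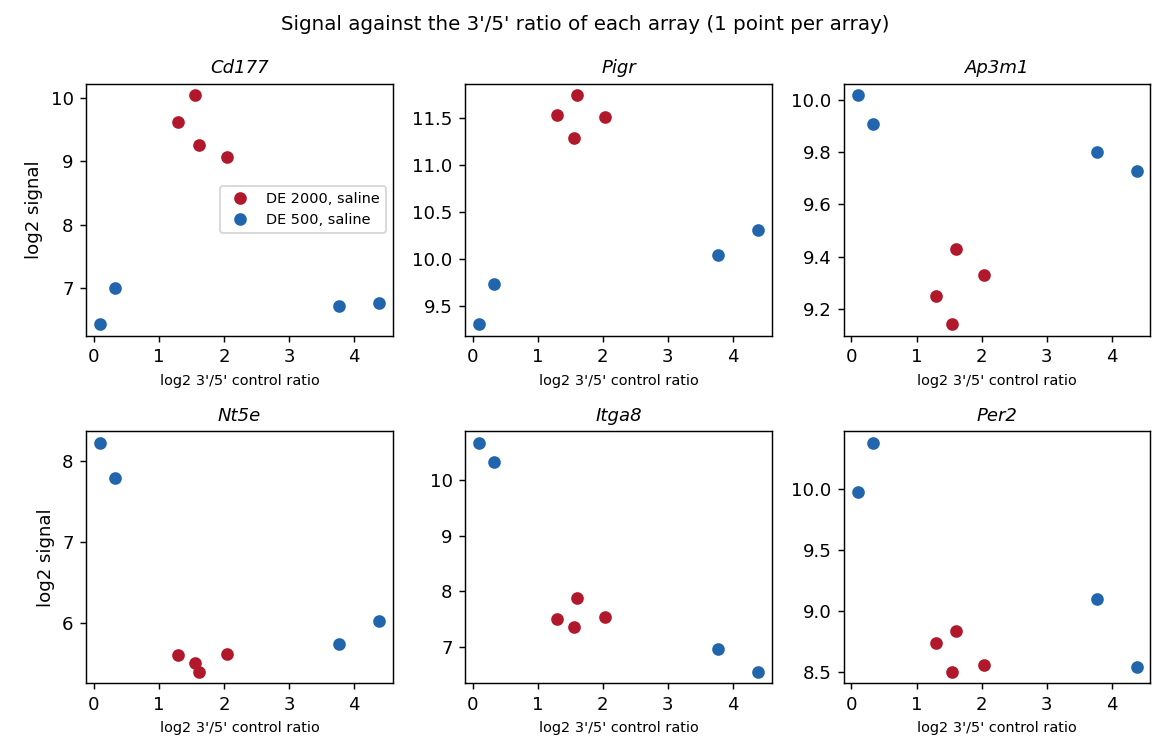
Log2 signal of 6 genes against the log2 3'/5' control ratio of each array, with 1 point per array for DE 2000 and DE 500. In Cd177 and Pigr every DE 2000 array lies above every DE 500 array at either end of the ratio and in Ap3m1 below, whereas in Nt5e, Itga8 and Per2 the high values belong to DE 500 replicates 2 and 3, whose ratios are lowest.

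Among rises seen with the covariate, Hpf1, a partner of the PARP enzymes in DNA repair, lay between 9.76 and 10.17 in the DE 2000 arrays, against 10.01, 8.36, 8.08 and 9.73 at DE 500. DE 500 replicates 1 and 4 lay in or just below the DE 2000 range and replicates 2 and 3 far below it. The difference was 0.92 ± 0.39 without the covariate (limma, adjusted p = 0.901) and 1.15 ± 0.26 with it (adjusted p = 0.0251).

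Of 29 named genes called with the covariate, 11 kept the call when each array was left out, namely Cd177, Saa3, Pigr, Lcn2, D17H6S56E-5, Cp, Scgb3a1, Nt5e, Itga8, Foxn2 and Cfl2. The other 18 lost it without at least 1 array, with a highest limma adjusted p between 0.0503 and 0.211. Leaving out DE 2000 replicate 4 ended 16 of these calls, DE 2000 replicate 3 ended 14, and DE 500 replicates 1 and 3 ended 15 each, while 8 ended without DE 500 replicate 2, 5 without DE 500 replicate 4, and 1 each without DE 2000 replicates 1 and 2. Per2 was lost without DE 500 replicate 2 (limma, adjusted p = 0.0503). These calls are those of the brightest probe sets. A second tested Cfl2 probe set differed by -0.26 ± 0.15 with the covariate and was not called (limma, adjusted p = 0.431).

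The calls with the covariate depended on the form of the covariate, and this was checked with the ratio and its square in the model. That fit, added after the values were seen, called 42 probe sets, 22 higher and 20 lower. It shared 5 of the 47 higher and 10 of the 160 lower calls of the fit with the ratio alone, and 4 of the 7 calls without a covariate, from Cd177, Pigr and D17H6S56E-5. Of the genes described as falling with the covariate, Per2 was called with the square in the model (-1.37, limma, adjusted p = 0.0471), while Nt5e (-1.12, adjusted p = 0.194) and Itga8 (-0.76, adjusted p = 0.374) were not. S1pr3 differed by -0.04 in that fit (limma, adjusted p = 0.987). Saa3 differed by 1.55 (limma, adjusted p = 0.15) and Lcn2 by 0.91 (adjusted p = 0.129). When DE 500 replicates 1 and 4 were left out, which leaves DE 500 arrays with ratios of 0.33 and 0.10, limma called 354 probe sets higher and 693 lower without a covariate, and the 7 were among them. The part of RNA integrity in any of these calls was not tested.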

How the data were processed

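Per the submitters' processing notes the authors computed the deposited intensity of each probe set with MAS5 (the sources used here give no version). The trimmed mean (2% at each end) was nearly equal in all 24 arrays. Per the labels, RNA came from frozen lung. Of 22690 probe sets, 64 controls were set aside. Log2 was taken without a pseudocount, and 13575 probe sets above the 40th percentile of mean log2 signal (a signal of 138.3) were tested, which represent 8315 genes by their brightest probe set, named from the array's platform annotation. Pairs of the 8 arrays correlated between 0.898 and 0.953, and none were identical.

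A linear model with 1 mean per group over all 24 arrays was fitted in R 4.3.3 by the functions lmFit, contrasts.fit and eBayes (trend on) of limma 3.58.1, two-sided, with Benjamini-Hochberg adjustment over all tested probe sets, and a probe set was called at an adjusted p below 0.05. The model was refitted after adding the log2 3'/5' ratio. The fit was tested on simulated data. Tables and figures used Python 3.11.15, pandas 2.3.3 and matplotlib 3.10.9.

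Named genes are those called without the covariate, the 8 higher and 8 lower genes of smallest p, the 10 largest rises and falls with the covariate, up to 4 genes of smallest p in each of 13 lists, and genes chosen for interest in exhaust or allergy. Clone names were passed over. The members and gene lists were chosen with earlier results of these data known. Second probe sets, Cyth3, the ciliated cell list, the lung markers, Cybb and other list members named beside a count, and the interaction genes were named after their values were seen. Alternatives were other normalizations, filters, a pseudocount, other sets of arrays, array weights, no trend, covariates, a replicate block and leaving out arrays.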

Additional observations from a re-analysis of the deposited data

Results flagged for a closer look

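Chance alone places about 1 in 20 groups of 4 arrays past the limit used for a sample that stands apart, and 9 of 164 gene and group combinations did so. Cfb was 7.26 in DE 500 replicate 4, below 7.68 to 7.74 in the others. Gpx2 was 8.56 in DE 500 replicate 1, above 7.97 to 8.06 in the others. In DE 2000 replicate 1, Maff was 6.65, below 7.25 to 7.32, and Per1 was 11.16, above 10.39 to 10.47. In DE 2000 replicate 2, Ctsb was 12.69, above 12.52 to 12.55, Rps19 was 12.60, below 12.91 to 12.97, and Ptpn12 was 10.51, below 10.67 to 10.69. Ptpn12 was also low in DE 500 replicate 2, at 10.90 against 11.01 to 11.02. Col8a1 was 6.02 in DE 2000 replicate 3, below 7.92 to 8.19 in the others.

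The difference between the doses itself differed between saline and ovalbumin mice for 3 probe sets when the 3'/5' ratio was in the model (limma interaction, adjusted p = 0.036 each), and for 0 without it. The saline difference exceeded the ovalbumin one by 1.59 ± 0.28 in Fignl1 and was below it by -0.85 ± 0.14 in Rab18 and by -0.95 ± 0.17 in a probe set of Wls. Without the ratio the interaction of these genes had a limma adjusted p of 0.954. The ovalbumin arrays mostly had lower ratios than the saline arrays, and the part of this in the interaction was not tested.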

How the results depend on the processing

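Without a covariate the count of 7 calls, all higher, was 5 to 9 under quantile or median normalization, no filter or a stricter one, a pseudocount of 16.2, other sets of arrays, array weights, no trend and 1 probe set per gene. The replicate block gave 6 calls. The residuals did not settle whether replicate numbers pair the samples. Residual correlations of same-numbered arrays were 0.172, 0.129, 0.035 and 0.092. DE 2000 arrays 1 and 4 correlated best with the DE 500 array of their own number, array 2 with number 3 and array 3 with number 2. Leaving out each array gave 4 to 7 calls (4 to 7 higher, 0 to 1 lower), with 4 without DE 500 replicate 1 and the 1 lower call without DE 2000 replicate 1.

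The covariates moved the counts: 207 with the 3'/5' ratio (47 higher, 160 lower), 42 with its square (22 and 20), 12 with the B1 repeat control (12 and 0), 121 with both (45 and 76), 132 with the ratio over saline arrays alone (45 and 87) and 1047 without DE 500 replicates 1 and 4 (354 and 693). With the ratio, leaving out each array gave 50 to 206 calls (14 to 42 higher, 36 to 168 lower). Counts were lowest without DE 500 replicate 1 (50) or 3 (62) or DE 2000 replicate 3 (63) or 4 (65). The interaction gave 3 calls with the ratio. The cause was not tested.

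Cd177 was called in 32 of 32 alternatives, Pigr in 33 of 33, D17H6S56E-5 in 32 of 33, Lcn2 in 30 of 33 and Saa3 in 21 of 32. Cd177 and Saa3 did not pass the stricter filter, at the 60th percentile, and so were not tested in that alternative. Saa3 was lost also under median scaling (adjusted p = 0.0639) and the replicate block (0.0545), Lcn2 with array weights (0.0523) and D17H6S56E-5 when the 8 arrays were fitted alone (0.123).

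The sign changed for 11 genes whose brightest probe set was called in neither fit. With array weights Chil3 was -0.02, Cyp1a1 0.03 and Hmox1 0.00. With the ratio Hmox1 was -0.07, Mt1 0.09 and Mt2 0.05, with its square Aldh3a1 was 0.00, Chil3 -0.01, Fyttd1 0.06 and Tmod3 0.23, with both covariates Mt1 was 0.19 and Mt2 0.05, and with the ratio over saline arrays Mt1 was 0.07 and Mt2 0.03. Without DE 500 replicates 1 and 4, Atp5g2 was -0.06, Gclc -0.03, Hmox1 -0.14, Mt1 0.37, Mt2 0.18 and Tmod3 0.07. Leaving out each array, Chil3 ranged from -0.07 to 0.21, Cyp1a1 from -0.30 to 0.10, Cyp1b1 from -0.27 to 0.08, Hmox1 from -0.08 to 0.27, Mt1 from -0.20 to 0.13 and Mt2 from -0.17 to 0.08. With the ratio the ranges were -0.02 to 0.22 in Chil3, -0.28 to 0.07 in Cyp1b1, -0.06 to 0.13 in Gclc, -0.29 to 0.16 in Hmox1, -0.05 to 0.17 in Mt1 and -0.08 to 0.20 in Mt2.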
